A study of Mus musculus with 37 samples.

Results

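The comparison described here was the liver transcriptome of dams given 0.5 mg/kg HFPO-DA against that of dams given vehicle. Its members were the 9 of 37 mice in the series that the labels give as dams at 0.5 mg/kg (n = 4) or at 0 mg/kg (n = 5), and no measured value was used to choose them. HFPO-DA (hexafluoropropylene oxide-dimer acid, given as its ammonium salt) is a short-chain per- and polyfluoroalkyl substance used in making fluoropolymers. All mice were wild-type Crl:CD1(ICR), an outbred stock. The dams were F0 females of about 11 weeks when dosing began. They received HFPO-DA in deionized water, or deionized water alone, once a day by oral gavage, for 53 to 65 doses that ran from 14 days before mating, through pregnancy, to lactation day 20 or 21. Controls and treated dams therefore shared mating, gestation, nursing and the gavage itself. RNA was measured in 4 to 6 µm sections of formalin-fixed, paraffin-embedded liver by TempO-Seq, in which pairs of detector oligonucleotides are ligated on their target RNA and counted by sequencing. Sections of 5 dams per dose were assayed, and the authors left out 1 dam at 0.5 mg/kg for low sequencing quality. Dams at 0.1 mg/kg (n = 5) and 5 mg/kg (n = 4) entered the same model, and sires at 0 and 0.5 mg/kg (n = 5 each) are used for context.

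PPARα is a nuclear receptor of hepatocytes that binds fatty acids and many acidic, amphipathic xenobiotics. With its partner RXR it binds response elements made of repeated AGGTCA-like elements, and it turns on genes for fatty acid uptake, for ω-hydroxylation in the endoplasmic reticulum, and for β-oxidation in peroxisomes and mitochondria. In rodents its sustained activation enlarges the peroxisome compartment of the hepatocyte. The liver of a nursing dam also supplies lipid for milk, which makes lipid synthesis a second pathway of interest in these animals.

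Total counts in the 9 dams ranged from 8931267 to 11523373, and between 16984 and 19463 probes had a count. Each library correlated with the mean of the others of its group with r between 0.963 and 0.979 across probes, and no library stood apart by this measure. Ddx3y, a Y-linked gene, had at most 2 counts in any dam and at least 31 in every sire. The 12 hepatocyte markers summed to 44593 to 61267 CPM, counts scaled to library size in vehicle dams and 48847 to 65682 CPM in treated dams. The sums of the Kupffer cell, stellate cell, endothelial, cholangiocyte, lymphocyte, neutrophil, erythroid, adipocyte and pancreatic acinar markers also overlapped between the groups, and Epcam, Elane and Lep had no count in any of the 9 dams. The endothelial sums overlapped only narrowly, at 784 to 909 CPM in vehicle dams and 684 to 813 CPM in treated dams. A log2 fold change above 0 was found for 3 of 12 endothelial, 2 of 12 stellate cell, 1 of 10 lymphocyte and 7 of 12 Kupffer cell markers. Over all genes it was found for 5628 of 11922, and no marker of these lists was called. The stellate cell markers summed to 1389 CPM in vehicle dam 5 against a vehicle median of 333 CPM. The part of these levels in the results was not tested. In bulk tissue, fewer cells of a type and less RNA per cell cannot be told apart. All levels below are CPM after TMM normalization, and they are compared between dams for 1 probe and not between genes, because probes differ in efficiency.

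At 0.5 mg/kg the dams' livers showed a small number of changed genes, led by Cyp4a14, Ehhadh, Cyp4a10 and Cyp4a31, all genes of fatty acid oxidation. Of 17038 probes tested, 105 (0.616%) passed the edgeR quasi-likelihood test at a Benjamini-Hochberg adjusted p under 0.10, with 72 raised (0.423%) and 33 lowered (0.194%). These probes belonged to 94 of 11922 genes (0.788%), of which 62 were raised (0.52%) and 32 lowered (0.268%). In comparison, the same model called 6 probes (0.0352%) at 0.1 mg/kg and 2476 probes (14.5%) at 5 mg/kg, against the same vehicle dams. An unadjusted p under 0.05 was reached by 1884 probes (11.1%). The raised genes had a median log2 fold change of 1.44 and the lowered genes one of -1.001. The groups did not overlap for 87 of the 105 called probes. Over all probes tested, every treated dam was above every vehicle dam for 278 (1.63%) and below for 241 (1.41%).

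The number of called probes depended on single dams. It was 40 without treated dam 3, 56 without treated dam 4, 62 without treated dam 2, 44 without vehicle dam 4, 46 without vehicle dam 2 and 69 without vehicle dam 5. Without vehicle dam 1 it rose to 155. DESeq2 on the same dams called 301 probes with 155 raised and 146 lowered, a more even split than that of edgeR. Each gene is described below by its called probe with the smallest adjusted p, and of the 58 called genes with at least 2 probes tested, 10 had at least 2 called.

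**Figure D1:**
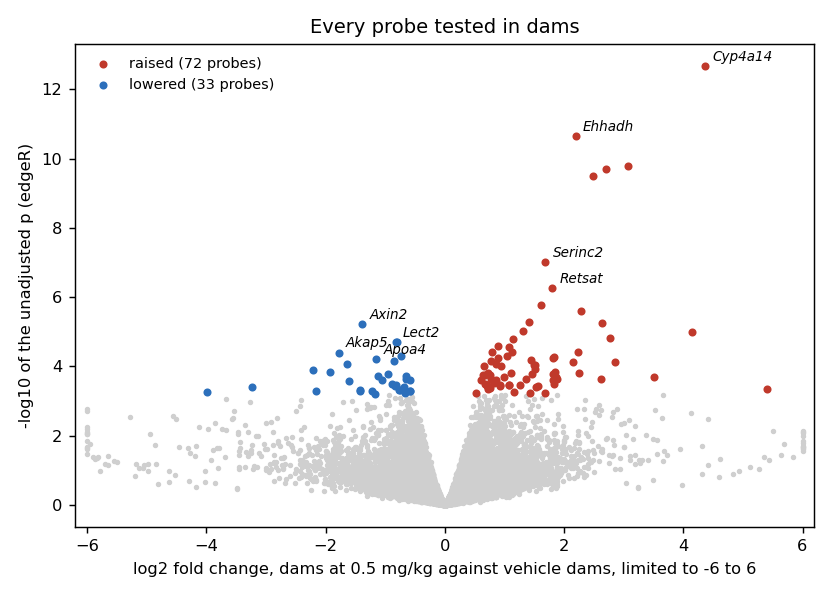
Log2 fold change (x axis, limited to -6 to 6) against -log10 of the unadjusted edgeR p (y axis) for every probe tested in dams at 0.5 mg/kg against vehicle, with the 72 raised probes in red, the 33 lowered in blue and the others in gray. Cyp4a14 and Ehhadh lie highest, and Axin2 is the highest of the lowered probes.

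Microsomal ω-hydroxylases of the Cyp4 family led the raised genes. These P450 enzymes oxidize the far end of fatty acids, which turns them into dicarboxylic acids for the peroxisome. Of 13 Cyp4 genes tested, 4 were raised and none was lowered, and the median log2 fold change of the list was 0.60 against -0.03 over all genes tested. Cyp4a14 had 11.4, 13.5, 38.8, 21.2 and 7.59 CPM in vehicle dams 1 to 5, and 353, 504, 339 and 328 CPM in treated dams 1 to 4. Every treated dam was thus far above every vehicle dam, with a log2 fold change of 4.37 ± 0.31 (SE, adjusted p = 3.60e-09). Cyp4a10 was at 30.9 to 132 CPM in vehicle dams and at 598, 787, 606 and 792 CPM in treated dams, again without overlap (log2 fold change 3.07 ± 0.30, adjusted p = 8.37e-07). Its second probe gave 2.71 ± 0.26. Cyp4a31 was at 65.8 to 174 CPM in vehicle dams and 439 to 806 CPM in treated dams (2.48 ± 0.25, adjusted p = 1.07e-06). Cyp4a10, Cyp4a14, Cyp4a31 and Cyp4a12a are close copies of one another, and how far each probe is private to its gene is not given in the sources used here.

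The fourth Cyp4 call rested on a single animal. Cyp4a12a encodes an ω-hydroxylase that is abundant in male mouse liver and scarce in females. It had 0.445, 1.49, 2.54, 0.512 and 0.0853 CPM in vehicle dams and 1.84, 8.999, 54.2 and 2.91 CPM in treated dams. Only treated dam 3 was far above the rest, and treated dam 1 lay below vehicle dam 3. The fitted log2 fold change was 4.14 ± 0.79 (adjusted p = 0.0121), and it was 2.16 without treated dam 3 (adjusted p = 0.431). At 5 mg/kg the level in dams was 206 ± 86.8 CPM (SD, n = 4).

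Peroxisomal β-oxidation gave more called genes than any other list. Of 21 genes tested, 6 were raised and none was lowered, with a median log2 fold change of 0.31 over the list. Ehhadh, the bifunctional enzyme of the middle steps, was at 526, 463, 357, 481 and 353 CPM in vehicle dams and at 1601, 3034, 1839 and 1523 CPM in treated dams (2.20 ± 0.19, adjusted p = 1.94e-07). Treated dam 2 was the highest, and the lowest treated dam stood well above the highest control. The thiolase Acaa1b rose from 6.16 to 12.03 CPM in vehicle dams to 17.98, 47.2, 18.9 and 27.3 CPM in treated dams (1.62 ± 0.26, adjusted p = 0.00371).

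Acaa1a, the paralogous thiolase, was at 308 to 453 CPM in vehicle dams and at 693, 2108, 500 and 689 CPM in treated dams. Although the groups did not overlap, treated dam 2 carried much of the difference: the log2 fold change was 1.44 ± 0.30 (adjusted p = 0.0368) with it and 0.77 without it (adjusted p = 0.204). The other two Acaa1a probes gave 0.41 and 0.27 and were not called. Eci2, an enoyl-CoA isomerase, was at 93.3 to 162 CPM in vehicle dams and 185 to 239 CPM in treated dams (0.79 ± 0.16, adjusted p = 0.0291). Ech1, a dienoyl-CoA isomerase, was at 4.70 to 12.7 CPM in vehicle dams and 10.1 to 22.1 CPM in treated dams, so that the groups overlapped (1.25 ± 0.30, adjusted p = 0.0754). The Ech1 call was lost without any 1 of 7 of the 9 dams, at adjusted p = 0.111 to 0.239. A second Ech1 probe, of similar level, gave 0.45 ± 0.33 and was not called (adjusted p = 0.646). Over the list, the number of raised genes was 4 without treated dam 2 and 7 without vehicle dam 1.

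Of 24 peroxins and peroxisomal membrane proteins tested, 2 were raised and none was lowered. Pex11a, which drives the division of peroxisomes, was at 24.5, 16.8, 14.9, 13.3 and 13.1 CPM in vehicle dams and at 32.6, 43.9, 45.1 and 53.1 CPM in treated dams (1.41 ± 0.24, adjusted p = 0.00844). Abcd3, a transporter that carries fatty acyl-CoA into the peroxisome, was at 38.6 to 66.7 CPM in vehicle dams and 82.9 to 123 CPM in treated dams (0.95 ± 0.20, adjusted p = 0.0419). The Abcd3 groups did not overlap, but its call was lost without any 1 of 5 dams (adjusted p = 0.107 to 0.152). The other 22 genes of this list did not pass the test, and their median with these was 0.13.

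**Figure D2:**
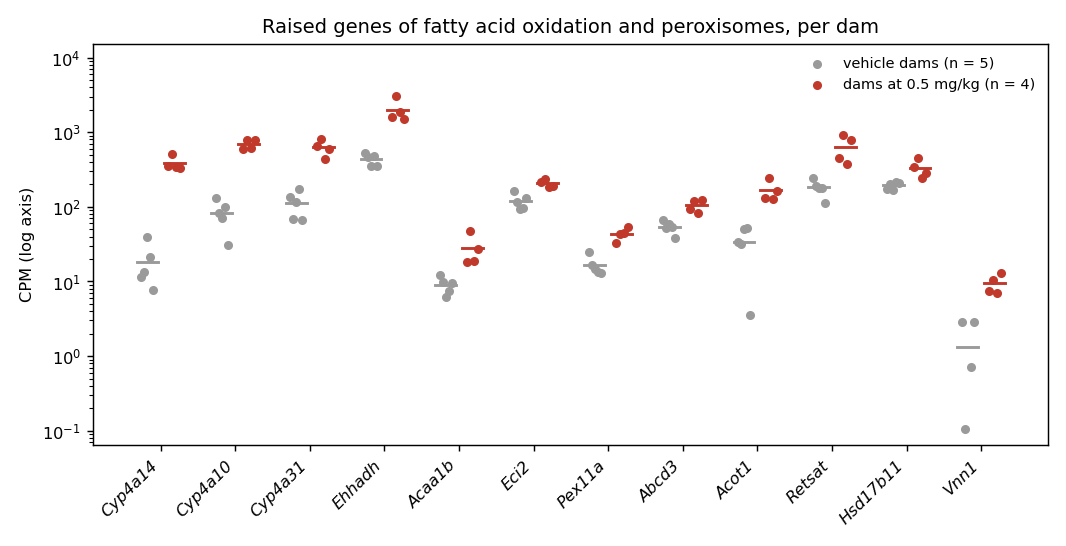
CPM on a log axis of 12 raised genes in each vehicle dam (gray, n = 5) and each dam at 0.5 mg/kg (red, n = 4), with horizontal lines at the group means. The groups do not overlap for any gene drawn, and the vehicle dam with 0 CPM of Vnn1 cannot be drawn on this axis.

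Of 10 microsomal fatty aldehyde and retinol enzymes, 2 were raised. Retsat, which saturates retinol, was at 246, 191, 178, 181 and 114 CPM in vehicle dams and at 447, 910, 378 and 795 CPM in treated dams (1.80 ± 0.27, adjusted p = 0.00136). Hsd17b11, a dehydrogenase found on lipid droplets, was at 170 to 214 CPM in vehicle dams and 244 to 450 CPM in treated dams (0.77 ± 0.17, adjusted p = 0.0575), and both of its probes were called. Without any 1 of 5 dams the Hsd17b11 call was lost (adjusted p = 0.105 to 0.208). Acot1, a cytosolic thioesterase that frees fatty acids from coenzyme A, was the only one of 10 thioesterases to pass the test, at 33.96, 31.4, 49.98, 52.5 and 3.58 CPM in vehicle dams and at 131, 243, 127 and 164 CPM in treated dams. Vehicle dam 5 was the lowest, and all treated dams were above all controls on both Acot1 probes (2.29 ± 0.38 and 2.63 ± 0.46). Acot1 has close paralogs, so reads of these may be counted with it. Vnn1, a pantetheinase of coenzyme A turnover, was at 0 to 2.90 CPM in vehicle dams and at 7.56, 10.5, 6.95 and 13.1 CPM in treated dams (2.77 ± 0.52, adjusted p = 0.0175), and it was the only raised gene of 11 in its list.

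Of 16 mitochondrial β-oxidation genes tested, 3 were raised and none was lowered, and 14 had a log2 fold change above 0, with a median of 0.40. Eci1, the mitochondrial enoyl-CoA isomerase, was at 5.83 to 14.4 CPM in vehicle dams and at 20.9, 23.03, 25.6 and 17.7 CPM in treated dams (1.08 ± 0.21, adjusted p = 0.0235). Its more abundant probe was called too, at 0.77 ± 0.18. Acadvl, which starts the oxidation of very long chains, was at 183 to 240 CPM in vehicle dams and at 291, 414, 273 and 295 CPM in treated dams (0.61 ± 0.14, adjusted p = 0.0628). Hadha, the trifunctional protein's α subunit, was at 302 to 403 CPM in vehicle dams and 442 to 570 CPM in treated dams (0.53 ± 0.13, adjusted p = 0.0960). The groups did not overlap for any of the 3 genes, yet the calls of Acadvl and Hadha were lost without any 1 of 5 and 7 of the dams respectively (adjusted p = 0.109 to 0.225 and 0.127 to 0.233). The Eci1 call was lost without treated dam 3 (adjusted p = 0.102).

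Neighbouring lists had few calls or none. None of the 9 carnitine shuttle genes tested passed, with a median of 0.52. Slc25a20, the carnitine-acylcarnitine carrier, was at 17.8 to 25.1 CPM in vehicle dams and at 34.95, 33.1, 39.6 and 38.5 CPM in treated dams, with no overlap, but its log2 fold change of 0.68 ± 0.20 had an adjusted p of 0.161. Cpt1a, which commits long chains to mitochondria, had 0.62 ± 0.28 (adjusted p = 0.418). None of 10 ketone body genes passed, with a median of 0.19 and Oxct1 at 0.94 ± 0.41 (adjusted p = 0.397). None of 29 oxidative phosphorylation genes was lowered and 1 was raised, with a median of 0.03. This was Ndufb8, a subunit of complex I, for which the called probe gave 0.83 ± 0.20 (adjusted p = 0.0712) and the more abundant probe gave -0.17 ± 0.14, so its direction differed between probes. That call too was lost without any 1 of 5 dams (adjusted p = 0.145 to 0.249).

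Fatty acid uptake, activation and binding accounted for 4 raised genes of 20 tested, with a median of 0.40 and none lowered. Fabp1, the abundant fatty acid binding protein of hepatocytes, was at 4446, 2870, 2313, 3297 and 1577 CPM in vehicle dams and at 5253, 7829, 5387 and 5460 CPM in treated dams. All treated dams were above all controls (1.04 ± 0.21, adjusted p = 0.0327), and the call was lost without treated dam 2 (adjusted p = 0.116). Fabp5, a family member typical of skin and adipose tissue, was at 130, 36.1, 54.2, 148 and 22.6 CPM in vehicle dams and at 314, 396, 386 and 292 CPM in treated dams (2.16 ± 0.46, adjusted p = 0.0368). Vehicle dams varied more for this gene than treated dams, and the call was lost without vehicle dam 2 or treated dam 3 (adjusted p = 0.112 and 0.102). Its second, weaker probe was also called (2.62 ± 0.61).

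Cd36, a fatty acid translocase of the cell surface, was at 60.6, 67.1, 20.2, 97.7 and 75.8 CPM in vehicle dams and at 132, 164, 100 and 149 CPM in treated dams. The groups were separated only narrowly, by treated dam 3 and vehicle dam 4 (1.08 ± 0.26, adjusted p = 0.0754). A weaker Cd36 probe gave 0.95 ± 0.34 with overlapping groups and was not called (adjusted p = 0.289). Acsl1, which activates long-chain fatty acids, gave 0.76 ± 0.19 on its called probe (adjusted p = 0.0840) and 0.38 ± 0.19 on a more abundant one that was not called. The Cd36 call was lost without any 1 of 5 dams (adjusted p = 0.105 to 0.204), and that of Acsl1 without any 1 of 7 (adjusted p = 0.146 to 0.212). Lpl, a lipoprotein lipase that is low in adult hepatocytes, was at 1.36 to 4.12 CPM in vehicle dams and at 6.73, 9.11, 14.7 and 4.12 CPM in treated dams (1.86 ± 0.43, adjusted p = 0.0607). Its call was lost without any 1 of 6 dams (adjusted p = 0.113 to 0.379), with the highest adjusted p when treated dam 3, the highest in Lpl, was left out. Of 17 lipid droplet proteins and lipases none passed, with a median of 0.32, and Fitm1, which promotes droplet formation, came closest at 1.88 ± 0.49 (adjusted p = 0.105).

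The promoter of Fabp1 is shown because it was the only promoter of a called gene with a direct repeat of AGGNCA elements spaced by 1 base, the form of a PPARα and RXR element. The sequence is from RefSeq (GRCm38.p6, chr6:71199629-71199928, plus strand) and spans 250 bases before to 50 after the gene's start, with the repeat in capitals.
Fabp1 promoter: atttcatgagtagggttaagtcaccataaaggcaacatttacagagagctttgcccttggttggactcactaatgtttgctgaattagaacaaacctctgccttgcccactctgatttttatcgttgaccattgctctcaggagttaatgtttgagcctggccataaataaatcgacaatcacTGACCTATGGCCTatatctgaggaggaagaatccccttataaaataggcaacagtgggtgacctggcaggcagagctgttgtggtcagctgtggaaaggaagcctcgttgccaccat
The repeat lies on the minus strand and begins 67 bases before the start. The motif AGGNCANAGGNCA, searched on both strands, was found in the promoters of 1 of 44 raised genes (2.27%), 0 of 26 lowered genes, 29 of 9188 tested genes (0.316%) and 122 of all 27025 promoters (0.451%). The stricter AGGTCANAGGTCA was in 13 promoters of 27025 (0.0481%) and in none of a called gene. These are matches of letters within 300 bases and not measured binding. The 24 called genes without a promoter in the table were not searched.

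Of 21 genes in a list of de novo lipogenesis and related steps, 4 were raised and none was lowered, 19 had a log2 fold change above 0, and the median was 0.68. The raised genes were Elovl5, Acss2, Thrsp and Lpin2, and no other member passed. With the probes of a gene summed, Elovl5 and Lpin2 were not called (adjusted p = 0.340 and 0.218). Elovl5, an elongase of polyunsaturated fatty acids, was at 170, 84.7, 136, 142 and 118 CPM in vehicle dams and at 233, 266, 251 and 219 CPM in treated dams (0.90 ± 0.19, adjusted p = 0.0338). Its more abundant probe gave 0.26 ± 0.18 and was not called. Acss2, which makes acetyl-CoA from acetate, was at 3.01, 4.68, 9.78, 6.55 and 6.65 CPM in vehicle dams and at 16.97, 18.3, 19.8 and 15.1 CPM in treated dams (1.504 ± 0.32, adjusted p = 0.0397). The other Acss2 probe, of similar level, gave 1.06 ± 0.40 with overlapping groups and was not called (adjusted p = 0.312). Thrsp, a lipogenic factor that responds to thyroid hormone and carbohydrate, was at 18.3, 1.595, 1.27, 6.55 and 9.90 CPM in vehicle dams and at 25.5, 18.1, 39.8 and 22.5 CPM in treated dams. The Thrsp groups overlapped, since vehicle dam 1 was just above treated dam 2 (1.84 ± 0.41, adjusted p = 0.0545). Lpin2, a phosphatidate phosphatase, had 1.51 ± 0.32 on its called probe (adjusted p = 0.0397), with overlapping groups, and 0.69 ± 0.24 on its most abundant probe. The calls of Acss2, Thrsp and Lpin2 were each lost without vehicle dam 2 or treated dam 3, with adjusted p of up to 0.152, 0.266 and 0.191. That of Thrsp was also lost without vehicle dam 4 (adjusted p = 0.136). That of Lpin2 was also lost without vehicle dam 4 or treated dam 4 (adjusted p = 0.121 and 0.108). The number of raised genes in this list was 1 without vehicle dam 2 and 7 without vehicle dam 1.

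Of 24 genes of cholesterol synthesis and SREBP2 targets, 1 was raised and none was lowered, although 21 of the 24 lay above 0 and the median was 0.48. None of 22 bile acid genes passed, with a median of 0.14.

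**Figure D3:**
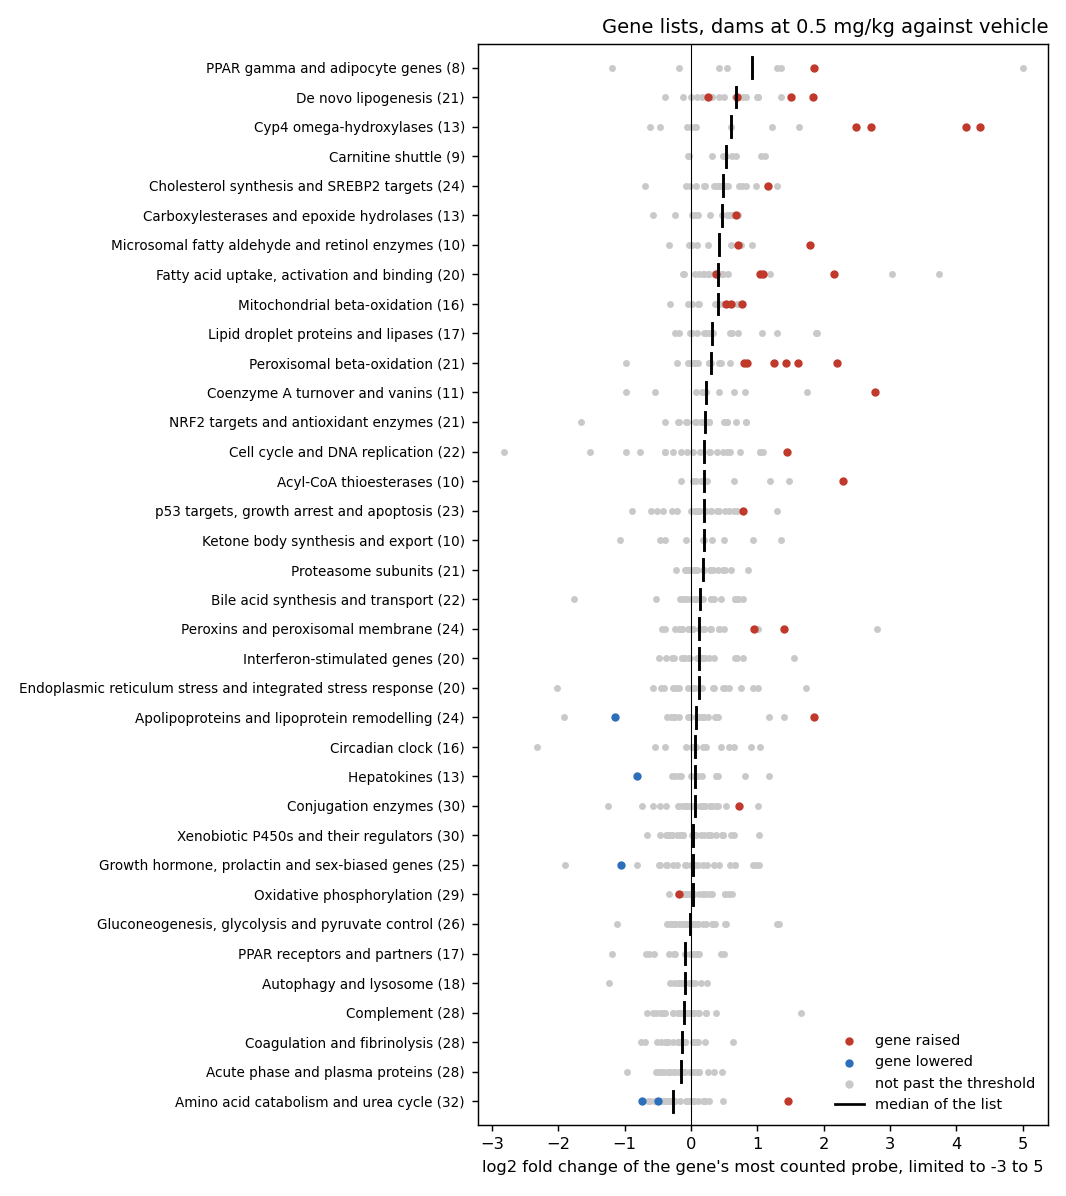
Log2 fold change, on the probe with the most counts, of each member of 36 gene lists in dams at 0.5 mg/kg against vehicle, with genes raised on any probe in red, lowered in blue, others in gray, and black bars at the list medians. Numbers in parentheses are genes tested, and Ndufb8 appears left of 0 because another of its probes was the one called.

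Raised genes outside these lists were varied in function. Serinc2, a membrane protein linked to serine incorporation, was at 8.24, 5.96, 4.11, 6.65 and 6.14 CPM in vehicle dams and at 17.3, 22.2, 19.3 and 21.2 CPM in treated dams. The dams of each group lay close together (1.69 ± 0.23, adjusted p = 2.78e-04), and a second probe was called at 1.12 ± 0.22. Fam213a, a peroxiredoxin-like protein, was at 58.9 to 215 CPM in vehicle dams and 273 to 399 CPM in treated dams (1.31 ± 0.24, adjusted p = 0.0121), with both probes called. Ephx2, an epoxide hydrolase of peroxisomes and cytosol, was at 646 to 1008 CPM in vehicle dams and 990 to 1398 CPM in treated dams (0.68 ± 0.16, adjusted p = 0.0746). The groups overlapped through vehicle dam 1, and the call was lost without any 1 of 6 dams (adjusted p = 0.128 to 0.206). Nfkbia, the inhibitor of NF-κB, was at 43.3 to 60.9 CPM in vehicle dams and 71.7 to 94.4 CPM in treated dams (0.77 ± 0.16, adjusted p = 0.0368), and was not called without vehicle dam 2 or treated dam 3 or 4 (adjusted p = 0.112 to 0.135). Chrna4, a nicotinic receptor subunit, Rab17, an epithelial trafficking GTPase, and Lacc1, a laccase-domain enzyme, were raised from low levels, with vehicle means of 2.23, 0.529 and 2.42 CPM and treated means of 10.1, 3.66 and 8.41 CPM. The call of Rab17 was lost without vehicle dam 4 (adjusted p = 0.121) and that of Lacc1 without vehicle dam 2 (adjusted p = 0.101).

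Cell cycle and damage genes gave single calls. Ccnd1, the D-type cyclin of G1, was at 1.45, 2.77, 3.33, 2.46 and 2.13 CPM in vehicle dams and at 4.89, 11.7, 8.73 and 9.82 CPM in treated dams. Treated dams were above all controls (1.83 ± 0.37, adjusted p = 0.0329), the call was lost without treated dam 2 (adjusted p = 0.111), and the second probe gave 1.46 ± 0.40 without passing. It was the only one of 22 cell cycle and DNA replication genes to pass. Fas, a death receptor, was the only one of 23 p53 and apoptosis genes to pass, at 9.24 to 17.1 CPM in vehicle dams and 21.0 to 30.9 CPM in treated dams (0.93 ± 0.23, adjusted p = 0.0759). Its call was lost without any 1 of 7 dams (adjusted p = 0.121 to 0.241). A more abundant Fas probe gave 0.78 ± 0.31 with overlapping groups (adjusted p = 0.343), and another gave 0.13 ± 0.40 (adjusted p = 0.935). Gstm4, a glutathione transferase, was the only one of 30 conjugation enzymes to pass (0.72 ± 0.18, adjusted p = 0.0861), and that call also was lost without any 1 of 7 dams (adjusted p = 0.128 to 0.280).

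Lowered genes were fewer than raised genes. Axin2, a feedback inhibitor and standard readout of Wnt/β-catenin signaling, was at 59.6, 36.4, 39.7, 66.5 and 43.9 CPM in vehicle dams and at 18.6, 24.96, 18.5 and 12.7 CPM in treated dams. All treated dams were below all controls (-1.39 ± 0.24, adjusted p = 0.00877). Lect2, a secreted hepatokine, was at 441, 380, 418, 321 and 453 CPM in vehicle dams and at 241, 256, 170 and 245 CPM in treated dams (-0.82 ± 0.16, adjusted p = 0.0191). It was the only lowered gene of 13 hepatokines, and its second probe gave -0.50 ± 0.18 without passing. Ranbp10, which binds the GTPase Ran, was at 463, 322, 318, 396 and 249 CPM in vehicle dams and at 192, 195, 187 and 226 CPM in treated dams (-0.81 ± 0.15, adjusted p = 0.0191). The calls of Axin2, Lect2 and Ranbp10 were kept without any single dam.

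Apoa4, an apolipoprotein secreted by intestine and liver, was at 631, 500, 528, 615 and 492 CPM in vehicle dams and at 226, 107, 267 and 398 CPM in treated dams. Treated dams were lower and more spread (-1.15 ± 0.24, adjusted p = 0.0359), and the call was kept without any single dam. It was the only lowered gene among 24 apolipoproteins and lipoprotein remodelling genes, where Lpl was the only raised one and the median was 0.08. Hal, which starts histidine breakdown, was at 1173, 1167, 982, 1297 and 1225 CPM in vehicle dams and at 685, 844, 567 and 701 CPM in treated dams (-0.74 ± 0.15, adjusted p = 0.0327). Prodh, which starts proline breakdown, was at 45.8 to 78.1 CPM in vehicle dams and 26.95 to 39.4 CPM in treated dams (-0.84 ± 0.20, adjusted p = 0.0759). On these probes the groups did not overlap for either gene. The most abundant Prodh probe gave -0.49 ± 0.21 with overlapping groups (adjusted p = 0.384), and another gave -0.62 ± 0.19 without overlap (adjusted p = 0.205). Of 32 genes of amino acid catabolism and the urea cycle, Hal and Prodh were lowered, 22 lay below 0, and the median was -0.27. Tat, which starts tyrosine breakdown, went the other way, from 12.4, 14.4, 22.8, 11.6 and 26.9 CPM in vehicle dams to 52.5, 27.96, 62.6 and 51.7 CPM in treated dams (1.46 ± 0.33, adjusted p = 0.0563). Without treated dam 3 none of these calls was kept, at adjusted p = 0.131 for Hal, 0.305 for Prodh and 0.237 for Tat, and those of Prodh and Tat were also lost without 6 and 4 other single dams.

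Stat5a, a signal transducer of growth hormone and prolactin, was at 27.3, 26.8, 30.2, 13.8 and 16.8 CPM in vehicle dams and at 15.03, 9.21, 10.1 and 9.45 CPM in treated dams. The groups overlapped through treated dam 1 and vehicle dam 4 (-1.05 ± 0.25, adjusted p = 0.0628), and the call was lost without any 1 of 5 dams (adjusted p = 0.131 to 0.237). It was the only one of 25 growth hormone, prolactin and sex-biased genes to pass, and the median of that list was 0.03. Akap5, an anchoring protein for protein kinase A, was at 7.14 to 24.2 CPM in vehicle dams and 3.43 to 6.42 CPM in treated dams (-1.78 ± 0.36, adjusted p = 0.0291). Its call was lost without treated dam 3 (adjusted p = 0.102). Dph1, an enzyme of diphthamide synthesis, was at 170 to 247 CPM in vehicle dams and 83.0 to 138 CPM in treated dams (-0.86 ± 0.18, adjusted p = 0.0368), and its call was lost without treated dam 3 or vehicle dam 4 (adjusted p = 0.172 and 0.116). The other lowered genes of smallest adjusted p were Rgs3, Lrtm1, Nat8f6, Mafk, Adgrl4, Ift46, Rnf141 and Nck1, with log2 fold changes from -2.21 for Lrtm1 to -0.58 for Nck1, and each was lost without at least 1 dam. Without treated dam 3, only 4 lowered probes remained past the threshold, against 33 with it.

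**Figure D4:**
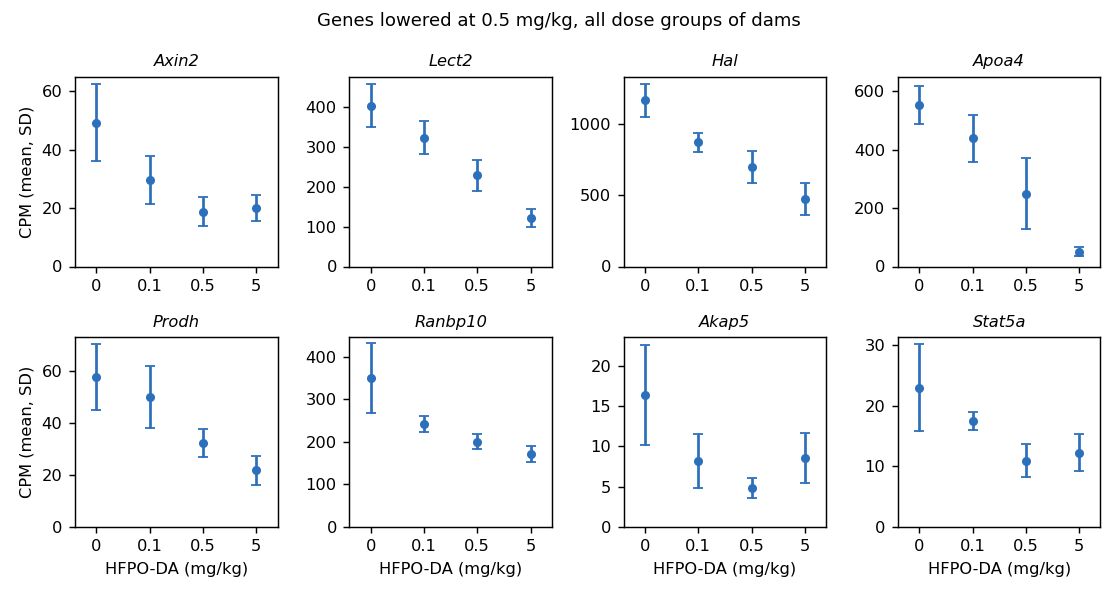
Mean CPM with SD of 8 lowered genes in the 4 dose groups of dams (n = 5, 5, 4 and 4 from vehicle upward), each gene on its own axis from 0. The means of Lect2, Hal, Apoa4, Prodh and Ranbp10 fall at each step of dose, while Axin2, Akap5 and Stat5a are no lower at 5 than at 0.5 mg/kg.

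Along the dose series, which shares its vehicle dams between doses, Lect2 was at 403 ± 53.7 CPM at 0 mg/kg, 323 ± 40.5 at 0.1 mg/kg, 228 ± 39.2 at 0.5 mg/kg and 121 ± 22.2 at 5 mg/kg (mean ± SD). Ehhadh, in the other direction, went from 436 ± 77.2 CPM through 663 ± 77.9 and 1999 ± 703 to 14157 ± 2390 CPM. Axin2, by comparison, was at 49.2 ± 13.1, 29.5 ± 8.18, 18.7 ± 5.00 and 20.0 ± 4.53 CPM, so its level at 5 mg/kg was within the spread of that at 0.5 mg/kg. Of the genes called at 0.5 mg/kg, 51 of 62 raised and 24 of 32 lowered were called in the same direction at 5 mg/kg, against the same vehicle dams. At 5 mg/kg 8.71% of all genes were raised and 9.05% lowered. Others were not called at 5 mg/kg: Tat had log2 fold changes of 1.46 and 0.37 at the 2 doses, Thrsp 1.84 and 1.04, and Dph1 -0.86 and -0.44. The difference between the doses was not tested. At 0.1 mg/kg, Cyp4a14 was the only one of the 94 genes to pass (1.65, adjusted p = 0.0720).

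Several large hepatic programmes gave no call at 0.5 mg/kg. None of 28 complement, 28 coagulation and 28 acute phase and plasma protein genes passed, with medians of -0.10, -0.14 and -0.14. In these lists 9, 6 and 9 genes had a log2 fold change above 0, against 5628 of 11922 over all genes. The study's gene set enrichment analysis reported lowered complement and coagulation cascades at 0.5 and 5 mg/kg in both sexes. The lists here were not tested as sets, so the lack of a call does not show that a list was unchanged. In the same order, 12, 21 and 14 genes of these lists were lowered at 5 mg/kg, where 9.05% of all genes were lowered and 8.71% raised. C9, the pore-forming complement component, was at 408, 713, 645, 509 and 759 CPM in vehicle dams and at 395, 490, 282 and 367 CPM in treated dams, with overlapping groups (-0.66 ± 0.22, adjusted p = 0.243). C1s1, a complement protease, had -0.58 ± 0.18 (adjusted p = 0.217) and Serpinf2, the plasmin inhibitor, -0.52 ± 0.17 (adjusted p = 0.227), although neither gene's groups overlapped. None of 30 xenobiotic P450 genes and regulators passed, with a median of 0.04, nor any of 21 NRF2 targets and antioxidant genes, 20 endoplasmic reticulum stress genes, 20 interferon-stimulated genes, 21 proteasome subunits, 16 clock genes, 18 autophagy and lysosome genes, or 26 genes of gluconeogenesis and glycolysis.

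The receptors themselves did not pass. Ppara was at 97.1, 76.9, 36.8, 57.0 and 50.4 CPM in vehicle dams and at 76.5, 70.3, 57.4 and 71.4 CPM in treated dams, with treated dams inside the range of the controls (0.12 ± 0.20, adjusted p = 0.881). Ppard was at 8.13 to 11.8 CPM in 4 vehicle dams, 56.9 CPM in vehicle dam 3 and 10.8 to 14.6 CPM in treated dams (-0.64 ± 0.43, adjusted p = 0.611). Pparg was at 0 to 3.67 CPM in vehicle dams and 0.121 to 1.39 CPM in treated dams (-1.19 ± 0.76, adjusted p = 0.588). Rxra was at 1287 to 1650 CPM in vehicle dams and 1009 to 1291 CPM in treated dams (-0.34 ± 0.13, adjusted p = 0.338). None of the 17 PPAR receptors and partners passed, and of 8 PPARγ and adipocyte genes tested, Lpl alone did, with 6 of the 8 above 0 and a median of 0.92.

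Sires dosed at 0.5 mg/kg had their own vehicle controls and so give a separate measurement at the same daily dose. They differed from dams in sex, in age (about 6 weeks at first dose), in the number of doses (84 to 85) and in the absence of pregnancy and lactation, and these cannot be told apart here. Fitted on sires only, 70 of 16103 probes passed (0.435%), from 64 genes, of which 50 were raised (0.439%) and 14 lowered (0.123%). The study, with DESeq2 at the same threshold, reported more changed genes in males than in females at this dose. Its quality figures give most of these sires fewer reads than the dams compared here. The numbers of called genes therefore do not rank the cohorts by response. The 19 genes raised in both cohorts made up 30.6% of the genes raised in dams and 38% of those raised in sires. Among them were Cyp4a10, Cyp4a14, Cyp4a31, Ehhadh, Acaa1a, Acaa1b, Eci1, Eci2, Pex11a, Abcd3, Retsat, Hsd17b11, Acot1, Vnn1, Fabp1, Cd36, Acsl1 and Ephx2, which have roles in fatty acid, retinoid, epoxide or coenzyme A metabolism. Cyp4a14 gave 4.80 ± 0.55 in sires beside 4.37 ± 0.31 in dams. Lect2 was the only gene lowered in both, at -1.11 ± 0.23 in sires (adjusted p = 0.0181).

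**Figure D5:**
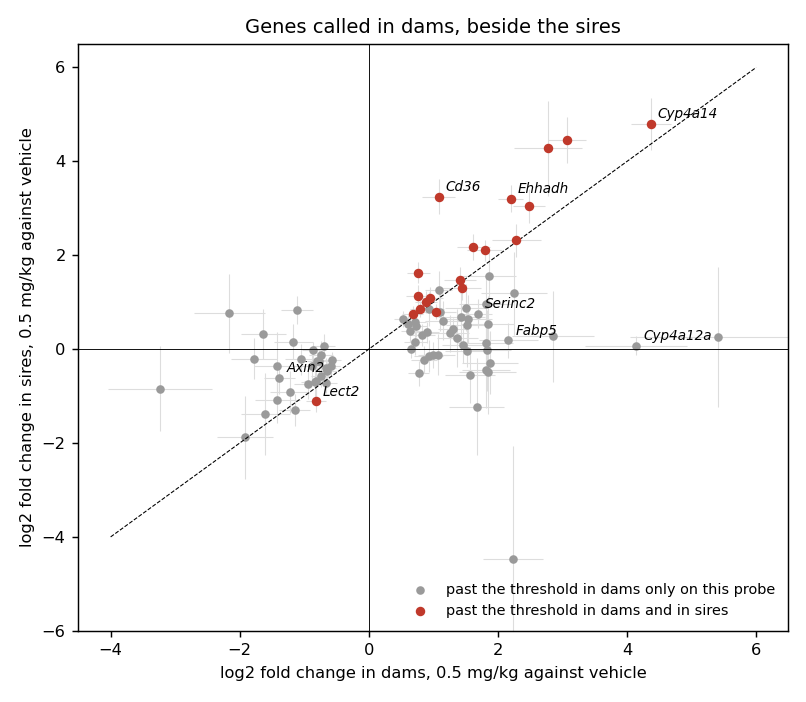
Log2 fold change at 0.5 mg/kg against vehicle in dams (x axis) and in sires (y axis) for the called probe of each gene called in dams, with bars of 1 SE and a dashed line of equality. Genes also past the threshold in sires on that probe are in red, and Cd36, Ehhadh, Cyp4a10, Hsd17b11 and Vnn1 lie above the line.

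The difference between the cohorts was tested in a model of all 37 mice. Of 18570 probes, 2 passed (0.0108%), and 1067 had an unadjusted p under 0.05. Cyp4a12a differed by 4.07 ± 0.77 (dams minus sires, adjusted p = 0.0393), since sires had 446 ± 167 CPM with vehicle and 467 ± 40.3 CPM at 0.5 mg/kg while dams had 0.972 ± 0.959 and 16.4 ± 24.3 CPM, of which treated dam 3 held most. LOC100505173, an uncharacterized locus, was at 0 CPM in 2 of 5 vehicle dams and at 33.5 to 46.2 CPM in the other three, so that its group mean describes no animal. Cd36 rose by 1.07 in dams and 3.24 in sires in this model, and the difference of -2.18 ± 0.50 did not pass (adjusted p = 0.341). The number of probes that passed was 0 without vehicle dam 2, 4 or 5, treated dam 3 or vehicle sire 3, and 4 without vehicle dam 3. Members of the lipogenesis list were called in dams and not in sires: none of 21 passed in sires, with a median of 0.21. For Elovl5, Acss2, Thrsp and Lpin2, however, the differences were 0.54, 0.62, 1.31 and 0.99, and none passed the test of the difference. Likewise Fabp5 (2.16 in dams, 0.18 in sires) and Ccnd1 (1.83 and -0.03) had no difference past the threshold.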

How the data were processed

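The authors deposited probe counts, that is, whole numbers of TempO-Seq reads per detector probe without normalization, for 30146 probes of 21450 gene symbols in 37 of 40 mice assayed. Per the submitters' processing notes, bcl2fastq 2.17.1.14 and Bowtie were used. The genome build and the probe sequences are not given in the sources used here. Groups came from the labels, which give no batch.

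The analysis used R 4.3.3 with edgeR 4.0.16 and limma 3.58.1. Low probes were dropped with filterByExpr, libraries were scaled by TMM to give CPM (counts per 1000000), and edgeR's quasi-likelihood fit took 1 mean for each dose over 18 dams. The test compared 0.5 with 0 mg/kg with Benjamini-Hochberg adjustment over 17038 probes and a threshold of 0.10, after the study's methods. Sires (19) were fitted apart, and the difference between cohorts was tested over 18570 probes in all mice. SE was the log2 fold change divided by the square root of F. DESeq2 1.42.0 served as an alternative. Lists are described on each gene's most counted probe, with calls on any probe. On simulated dams, 190 of 200 probes with a log2 fold change of 2 were recovered, all with the right sign, with 35 false calls among 15943 probes.

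Named were the 30 genes of smallest adjusted p, the 15 lowered genes of smallest adjusted p, up to 6 called members of each list (or 2 members of a list with no call), Ppara, Ppard, Pparg and Rxra, and the 5 genes with the smallest p of the difference between cohorts. The comparison, lists and tests were chosen with earlier results of these data known. The labels give animal numbers and no statement of litter or batch. In the main test, p-values set the difference against a spread estimated over all 18 dams, not over the 9 compared alone. Reads of Cyp4a, Acot and Acaa1 paralogs may be shared between probes. Promoters were matched by symbol for 70 of the 94 called genes (RefSeq, GRCm38.p6). Total counts of 8931267 to 11523373 set the counting precision, which is low for probes near 1 CPM. Some genes that meet the naming rule are not reported here.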

Additional observations from a re-analysis of the deposited data

Results flagged for a closer look

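In 124 groups of 4 or 5 dams (62 genes, vehicle and 0.5 mg/kg), 8 had 1 dam far from the others by Dixon's criterion, and chance gives about 1 in 20. At 0.5 mg/kg, dam 2 was high for 4 of these genes, at 504 CPM of Cyp4a14 against 328 to 353 CPM in the other three, 7829 CPM of Fabp1 against 5253 to 5460 CPM, 2108 CPM of Acaa1a against 500.1 to 693 CPM, and 414 CPM of Acadvl against 273 to 295 CPM. Dam 3 at 0.5 mg/kg had 54.2 CPM of Cyp4a12a against 1.84 to 8.999 CPM, and dam 1 had 15.03 CPM of Stat5a against 9.21 to 10.1 CPM. Among vehicle dams, dam 1 had 1008 CPM of Ephx2 against 646 to 705 CPM, and dam 3 had 56.9 CPM of Ppard against 8.13 to 11.8 CPM.

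The effect of 0.5 mg/kg differed between dams and sires past the threshold for 2 genes. The difference in log2 fold change, dams minus sires, was 4.07 for Cyp4a12a (adjusted p = 0.0393) and -15.8 for LOC100505173 (adjusted p = 0.0713). The mean of LOC100505173 was 21.96 ± 20.6 CPM (SD) in vehicle dams and 0.228 ± 0.328 CPM in treated dams, and 0.0550 ± 0.0754 CPM in vehicle sires and 40.8 ± 40.7 CPM in treated sires. With 2 groups near 0, this fitted difference depends on the prior count and is no measure of size.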

How the results depend on the processing

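No paired analysis was possible because the labels give animal numbers only, and replicate numbers were assigned in accession order. The count of called probes (105, with 72 raised and 33 lowered) became 216 (143 and 73) with no filter on low counts, 301 (155 and 146) with DESeq2 on the dams, 42 (34 and 8) at a threshold of 0.05, 50 (38 and 12) with only the 9 dams compared, and 33 (28 and 5) with all 37 mice in the fit. Lowered probes were 17 under the legacy quasi-likelihood fit and 19 with the probes of a gene summed. DESeq2 on the dams called 276 genes, which held 73 of the 94 genes called here. Leaving out 1 dam at a time gave 40 to 155 probes, 34 to 113 raised and 4 to 42 lowered. The 2 probes that differed between cohorts became 99 with no filter, 0 in a robust fit, 7 with DESeq2 on all 37 mice, 1 at a threshold of 0.05 and 1 with only the 0 and 0.5 mg/kg groups, and 0 to 4 with 1 mouse left out. Among the 58 named genes that were called, none changed direction, and the other called genes were not followed in this way. Ppard and Ppara, which were not called, changed sign without vehicle dam 3: with 1 dam left out, Ppard ranged from -0.83 to 0.30 and Ppara from -0.026 to 0.32. Of 58 named genes that were called, 14 kept their call under every alternative that gave an adjusted p (Ehhadh, Cyp4a14, Cyp4a10, Cyp4a31, Vnn1, Serinc2, Retsat, Acaa1b, Acot1, Pex11a, Axin2, Fam213a, Ranbp10 and Eci2), and 39 lost it without at least 1 dam. DESeq2 gave no adjusted p for 6 of the 58 on the dams and 17 on all mice, Cyp4a14, Cyp4a10 and Vnn1 among the latter. The cause of these changes was not tested. Of 58 called genes with several probes, 6 had a most counted other probe of the opposite sign.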

Other observations

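Axin2 and Lect2 are among genes that depend on Wnt signaling in hepatocytes around the central vein. A list of 21 genes of this zone, which also holds the ligand genes Wnt2 and Rspo3, was assembled after the values of Axin2 and Lect2 were seen. The list was built around Axin2 and Lect2, so they are left out of its counts. None of the other 16 tested was called at 0.5 mg/kg, 12 had a log2 fold change below 0, and the median was -0.37, against -0.03 over all 11922 genes, of which 6292 lay below 0. Tbx3, a transcription factor of this zone, gave -0.78 ± 0.24 (adjusted p = 0.191) and Wnt2, a ligand made by central vein endothelium, gave -1.16 ± 0.41 (adjusted p = 0.270), both with every treated dam below every vehicle dam. The same separation was seen for 1.41% of all probes tested. Znrf3, Notum, Tcf7 and Slc1a4 lay above 0, at 0.21 ± 0.38, 0.15 ± 0.35, 0.52 ± 0.87 and 0.91 ± 1.24. Glul, the glutamine synthetase of the innermost ring of hepatocytes, gave -0.26 ± 0.19 (adjusted p = 0.645), and Cyp2e1 gave -0.17 ± 0.20 (adjusted p = 0.804). Lgr5 and Slc1a4 were counted too rarely for a useful estimate, with SEs of 0.85 and 1.24.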
